A study of Mus musculus with 9 samples.

Results

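Neurotrophins are secreted growth factors that keep neurons alive and adjust synapses, and their mRNAs were followed here in the forebrain of mice given an antipsychotic drug. The members were all probe sets whose annotated gene symbol is Bdnf, Ntf3, Ntrk2, Ntrk3, Ngfr, Vgf, Nptx1 or Gdnf. A probe set is a group of short probes on the array that together measure 1 transcript. Of 12422 probe sets, 6 carried one of these symbols, and they represented 5 of the 8 genes: 1 probe set each for Bdnf, Ntrk2, Ntrk3 and Nptx1, and 2 for Gdnf. Ntf3, Ngfr and Vgf were not analysed here.

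RNA came from the forebrain of male C57BL mice, an inbred strain, that were housed singly on a 12-hour light cycle and killed by cervical dislocation. Their stated age of 4 weeks cannot be the age at death, as settling in and treatment took 2 and 4 weeks. Clozapine, an atypical antipsychotic, was given at 12 mg/kg/day, and haloperidol, a typical antipsychotic and dopamine receptor blocker, at 1.6 mg/kg/day. Both were given in the drinking water for 4 weeks, which followed 2 weeks of settling in, while untreated controls received neither. Each treatment had 10 animals, of which 3 were measured without pooling on Affymetrix U74Av2 arrays, so that each group held 3 arrays of separate animals. The titles name the right side of the brain and the tissue entry the left hemisphere, so the side was not settled. The purpose was to set the chronic profiles of both drugs side by side, and antipsychotics are reported to alter Bdnf.

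Bdnf, brain-derived neurotrophic factor, is made as a precursor, cut to its mature form and released from neurons in an activity-dependent way. It binds the receptor tyrosine kinase TrkB, encoded by Ntrk2, while the product of Ntf3 binds TrkC, encoded by Ntrk3, and all neurotrophins bind the p75 receptor encoded by Ngfr. Gdnf, glial cell line-derived neurotrophic factor, belongs to another family, signals through Ret and its co-receptors and supports midbrain dopamine neurons. Vgf is a secreted protein induced by neurotrophins, and Nptx1 is a neuronal pentraxin that gathers AMPA-type glutamate receptors at synapses.

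Bdnf is transcribed from several promoters that share 1 coding exon, and a probe set does not tell apart the transcripts that begin at each of them. RefSeq's table of promoters (GRCm38.p6, 250 bases before to 50 after each start) held 7 entries for Bdnf, and 5 of the 8 genes had at least 1 entry. The promoters were searched on both strands for the cAMP response element TGACGTCA, for TCACGTCA, the form of that element known as the calcium-responsive site of Bdnf, and for the E-box CACGTG. Of the 7 Bdnf entries, 1 held TCACGTCA, beginning 38 bases before the start and overlapping no other match, and 0 held either of the other motifs. TCACGTCA was present in 0.441% of all 32851 promoters in the table, TGACGTCA in 1.79% and CACGTG in 7.15%. The entry is printed because it is the Bdnf promoter best known for its response to neuronal activity. It lies at chr2:109692186-109692485 on the plus strand, and the capitals mark the match.
Bdnf: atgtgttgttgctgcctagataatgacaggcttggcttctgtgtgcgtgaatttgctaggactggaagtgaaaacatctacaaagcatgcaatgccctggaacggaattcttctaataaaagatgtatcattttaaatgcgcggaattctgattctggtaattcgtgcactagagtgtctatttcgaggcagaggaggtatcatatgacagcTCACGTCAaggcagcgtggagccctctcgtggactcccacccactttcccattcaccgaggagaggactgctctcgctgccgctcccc
A match is a description of the letters in this window and says nothing about binding in these animals.

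Values are log2 values as the authors normalised them with GCRMA, so that a difference of 1 is a doubling. The model tested the 7453 probe sets that averaged over 3.45, which is the 40th percentile of these averages. Of the 6 member probe sets, 5 passed this filter, while the second of Gdnf, with an average of 2.51, did not. The neuronal synaptic gene Snap25 lay between 12.82 and 13.26 on all arrays and the enkephalin gene Penk, abundant in the striatum, between 11.26 and 11.86 in its brightest probe set. Genes typical of the cerebellum were mixed: Gabra6 lay at 3.15 or lower and Cbln1 at 2.73 or lower, Pcp2 between 7.07 and 7.46 in 1 probe set and at 1.24 or lower in the other, and Zic1 between 9.33 and 10.50. Haloperidol replicate 3 alone had high pituitary hormone transcripts, with growth hormone (Gh) at 12.57 against 1.28 or lower on the other arrays. Control replicate 3 stood apart from the rest on the first principal component, which held 50.1% of the variance, at a score of 37.51 against 7.0 or lower. In bulk tissue, fewer cells of a type and less RNA per cell cannot be told apart.

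Neither drug was accompanied by a difference in Bdnf larger than the spread between animals. Bdnf had log2 values of 9.41, 10.75 and 10.68 with clozapine, 10.21, 10.17 and 9.52 with haloperidol and 9.70, 10.36 and 11.16 in the untreated controls. Both drug groups overlapped the controls, and the highest array, control replicate 3, and the third lowest, control replicate 1, belonged to the same group. With clozapine Bdnf averaged 10.28 ± 0.75 against 10.41 ± 0.74 in controls (SD, n = 3 each), a difference of -0.13 ± 0.46 (SE) with a 95% confidence interval of -1.19 to 0.94, or 0.438-fold to 1.92-fold. With haloperidol it averaged 9.97 ± 0.39, a difference from the controls of -0.44 ± 0.46 with an interval of -1.51 to 0.62, or 0.352-fold to 1.54-fold. The adjusted p of limma's moderated test was 1 for clozapine and 0.813 for haloperidol, and both intervals include no difference. The direction for clozapine turned with the removal of 1 array: the difference was 0.25 without control replicate 3 and 0.31 without clozapine replicate 1. For haloperidol the difference was -0.06 without control replicate 3.

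**Figure D1:**
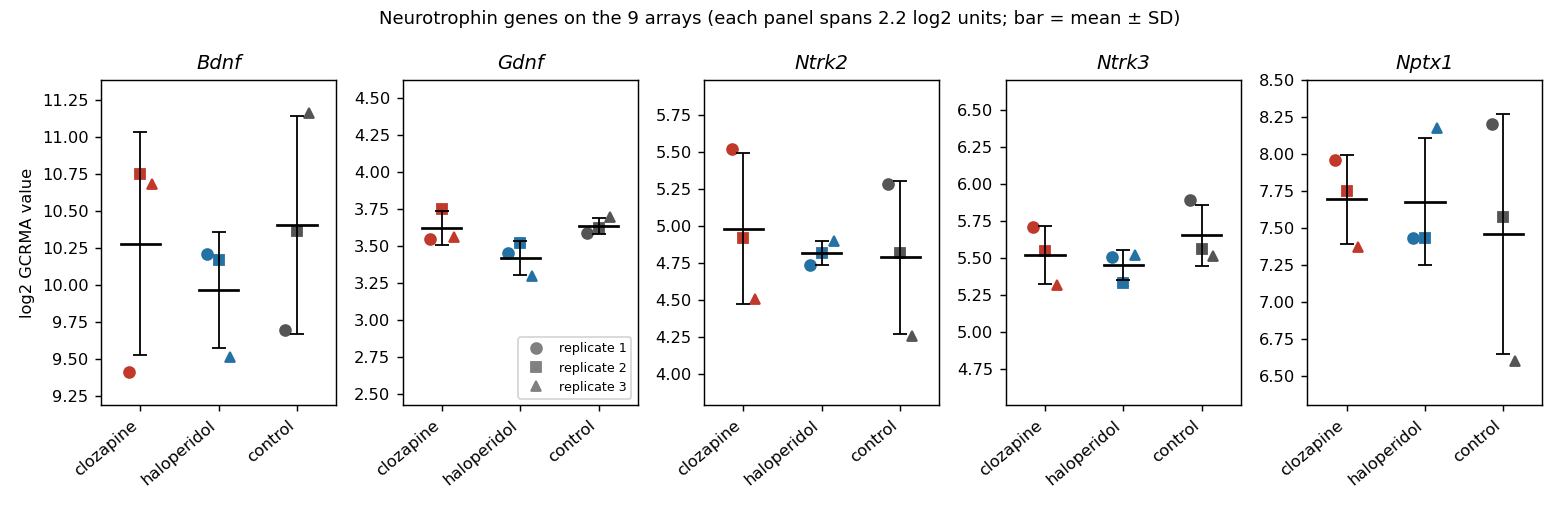
Log2 GCRMA values of the 5 measured neurotrophin genes (vertical axis) on each array, with clozapine, haloperidol and control side by side in each panel; symbols mark the replicate number, the horizontal bar is the mean and the error bar the SD of 3 arrays. Bdnf runs from 9.41 to 10.75 with clozapine and from 9.70 to 11.16 in controls, so the groups overlap, whereas the Gdnf arrays with haloperidol all lie below the controls. The haloperidol mean of Gdnf, 3.42, lies under the filter value of 3.45.

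Gdnf, the other ligand measured, had low values on all arrays in both of its probe sets. The tested probe set stood at 3.54, 3.75 and 3.56 with clozapine, 3.45, 3.52 and 3.29 with haloperidol and 3.59, 3.62 and 3.69 in controls. All 3 haloperidol arrays were below all 3 controls, and the clozapine arrays overlapped them. With haloperidol Gdnf averaged 3.42 ± 0.11 against 3.63 ± 0.05 in controls (SD, n = 3 each), a difference of -0.22 ± 0.10 (SE) and an interval of -0.43 to 0.0038, with an unadjusted p of 0.0532 and an adjusted p of 0.532 in limma. The haloperidol mean lay under the filter value of 3.45, so this probe set passed the filter only through the clozapine and control arrays. Of all probe sets tested, 19.4% had haloperidol arrays that lay wholly below the controls. With clozapine the difference was -0.02 (interval -0.24 to 0.20), and it lay between 0.01 and 0.02 without clozapine replicate 1, clozapine replicate 3 or control replicate 3.

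The second Gdnf probe set, below the filter, had 2.51, 2.65 and 2.49 with clozapine, 2.46, 2.49 and 2.38 with haloperidol and 2.52, 2.51 and 2.54 in controls. It showed the same order, with all haloperidol arrays lowest, and a difference of -0.08. The median over all 12422 probe sets, those near the floor included, moved with these values, at 4.07, 4.06 and 4.02 with haloperidol against 4.15, 4.19 and 4.11 in controls. The median over the tested probe sets did not, at 6.25, 6.17 and 6.33 with haloperidol against 6.30, 6.22 and 6.10 in controls. With each array centred on the first of these medians, which raised the difference of the typical tested probe set by 0.10, the haloperidol difference was -0.11 for the tested Gdnf probe set and 0.02 for the second.

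The TrkB receptor gene Ntrk2 differed by less than the spread between animals in both comparisons. Ntrk2 had 5.52, 4.92 and 4.51 with clozapine, 4.74, 4.82 and 4.90 with haloperidol and 5.29, 4.82 and 4.26 in controls. Clozapine and control arrays each spanned more than 1 log2 unit, and the 3 haloperidol arrays lay inside the range of the controls. The difference was 0.19 ± 0.30 (SE, n = 3 each) for clozapine, with an interval of -0.50 to 0.89, and 0.03 ± 0.30 for haloperidol, with an interval of -0.67 to 0.73. Adjusted p in limma was 1 and 0.984. Without control replicate 3 the differences were -0.07 and -0.23, and their direction also turned without 1 treated array, to -0.07 for clozapine without its replicate 1 and to -0.01 for haloperidol without its replicate 3. Ntrk2 produces a full-length receptor and a truncated one without the kinase domain, and which of these transcripts the probe set reads was not tested.

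Ntrk3, the TrkC gene, varied less. It had 5.70, 5.54 and 5.32 with clozapine, 5.50, 5.33 and 5.52 with haloperidol and 5.89, 5.56 and 5.51 in controls. The highest haloperidol array, at 5.52, lay just above the lowest control, at 5.51, and the clozapine arrays overlapped the controls. The difference was -0.13 ± 0.14 (SE, n = 3 each) for clozapine, with an interval of -0.45 to 0.19, and -0.20 ± 0.14 for haloperidol, with an interval of -0.52 to 0.12. Neither passed, with adjusted p of 1 and 0.673 in limma. The intervals correspond to 0.731-fold to 1.14-fold and to 0.696-fold to 1.09-fold.

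Nptx1, the pentraxin of excitatory synapses, had 7.96, 7.75 and 7.37 with clozapine, 7.43, 7.43 and 8.17 with haloperidol and 8.20, 7.58 and 6.60 in controls. The controls held both the highest and the lowest of the 9 arrays. The difference was 0.23 ± 0.40 (SE, n = 3 each) for clozapine, with an interval of -0.68 to 1.15, and 0.22 ± 0.40 for haloperidol, with an interval of -0.70 to 1.13. Adjusted p in limma was 1 and 0.897. Without control replicate 3 the differences were -0.20 and -0.21, and without haloperidol replicate 3 that for haloperidol was -0.03.

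Between the drugs, whose doses differ, all 5 member probe sets had a higher mean with clozapine than with haloperidol, as had 56.4% of all tested probe sets. The difference, clozapine minus haloperidol, was 0.31 for Bdnf (interval -0.75 to 1.38), 0.20 for Gdnf (-0.02 to 0.42), 0.17 for Ntrk2 (-0.53 to 0.87), 0.07 for Ntrk3 (-0.25 to 0.39) and 0.01 for Nptx1 (-0.90 to 0.93). The arrays of the 2 drugs did not overlap for Gdnf alone, as held in the same direction for 15.2% of all tested probe sets. With each array centred on its median, which moved the typical difference by -0.10, Ntrk3 and Nptx1 turned to -0.03 and -0.09.

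Counted over the 5 tested members, 2 lay above and 3 below the controls with clozapine, and likewise 2 above and 3 below with haloperidol, while 49.5% and 46.4% of all tested probe sets lay above the controls with clozapine and haloperidol. None of the 5 had an unadjusted p under 0.05 in any of the 3 comparisons. Over all 7453 probe sets limma called 0 at an adjusted p of 0.05 in each comparison, or 0% of those tested, and an unadjusted p under 0.05 was found for 70 with clozapine, 680 with haloperidol and 271 between the drugs, or 0.939%, 9.12% and 3.64%. With 3 arrays a side, the smallest two-sided p of an exact permutation test is 0.1, and none was used. The 3 controls served both drugs, and their error therefore enters both differences.

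**Figure D2:**
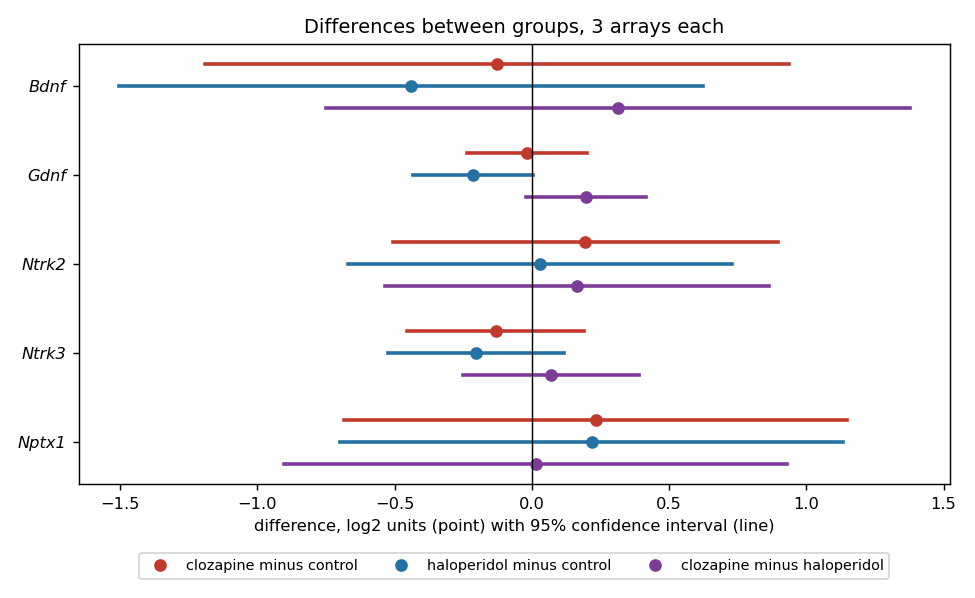
Differences between group means in log2 units (horizontal axis, points) with their 95% confidence intervals (lines) for each tested member gene, in 3 colours for the 3 comparisons. All intervals include 0 and those of Bdnf, from -1.51 to 0.62 with haloperidol and from -1.19 to 0.94 with clozapine against control, are the widest of the 5 genes.

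Bdnf, Nptx1 and Ntrk2 differed by up to 1.60 log2 units among animals of the same group. Bdnf spanned 1.34 log2 units, or 2.53-fold, within the clozapine group and 1.47 log2 units, or 2.77-fold, within the untreated controls. Nptx1 spanned 1.60 log2 units, or 3.04-fold, within the controls, and Ntrk2 1.01 and 1.03 log2 units within the clozapine and control groups. Differences between group means held 10.9% of the variance of Bdnf over the 9 arrays, 5.87% of that of Ntrk2 and 5.19% of that of Nptx1, against a median of 18.4% for all tested probe sets. Such a share exceeds 0 also without a treatment effect. Ntrk3, at 25.6%, and Gdnf, at 59.5%, had higher shares but small variances. The unadjusted p of limma's moderated F test over the 3 groups was 0.382 for Ntrk3 and 0.0964 for Gdnf.

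Bdnf was among the more variable transcripts of the table. Its SD over the 9 arrays was 0.59 log2 units, and 252 of 7453 tested probe sets, or 3.38%, had a higher one. Nptx1 had an SD of 0.49, exceeded by 6.27% of probe sets, and Ntrk2 an SD of 0.38, exceeded by 13.8%. The SDs of Ntrk3, 0.18, and Gdnf, 0.13, lay below the median of 0.20.

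**Figure D3:**
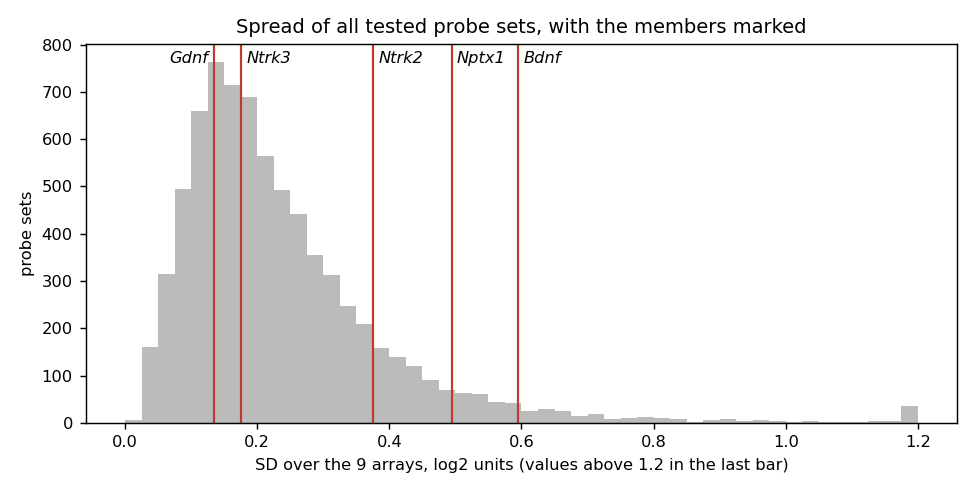
Number of probe sets (vertical axis) by SD over the 9 arrays in log2 units (horizontal axis) for the 7453 tested probe sets, with red lines at the 5 member genes. Bdnf (0.59), Nptx1 (0.49) and Ntrk2 (0.38) lie in the right tail, and Ntrk3 (0.18) and Gdnf (0.13) below the median of 0.20.

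This variation was ordered, and the order ran across the treatments. Bdnf was lowest on clozapine replicate 1, haloperidol replicate 3 and control replicate 1, which is 1 array of each group, and highest on control replicate 3. The same 3 arrays had the 3 highest values of Nptx1, and control replicate 3 the lowest. Ntrk2 was highest on clozapine replicate 1 and control replicate 1 and lowest on control replicate 3, with haloperidol replicate 3 at the fourth place. These are also the 3 arrays that lay apart from the rest on the low side of the first principal component, at scores of -17.61, -19.75 and -19.63, while clozapine replicates 2 and 3, haloperidol replicates 1 and 2 and control replicate 2 lay between 0.477 and 7.0.

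As a description over the 9 arrays, which fall into these sets and share 1 normalisation, Bdnf had a Pearson r of -0.84 with Nptx1 (Spearman rho -0.70, and r -0.74 without control replicate 3) and of -0.83 with Ntrk2 (rho -0.67, and r -0.74 without that array). Ntrk2 and Nptx1 had an r of 0.84 (rho 0.90, and r 0.73 without it). Over these arrays Bdnf thus ran opposite to Ntrk2 and Nptx1. Without the 2 arrays farthest from the median in Bdnf, r was -0.59 with Ntrk2 and -0.74 with Nptx1. A relation between ligand and receptor was not tested. With the score of the first principal component r was 0.93 for Bdnf, -0.97 for Nptx1, -0.85 for Ntrk2, -0.50 for Ntrk3 and 0.55 for Gdnf. The component was computed from all tested probe sets, these included.

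**Figure D4:**
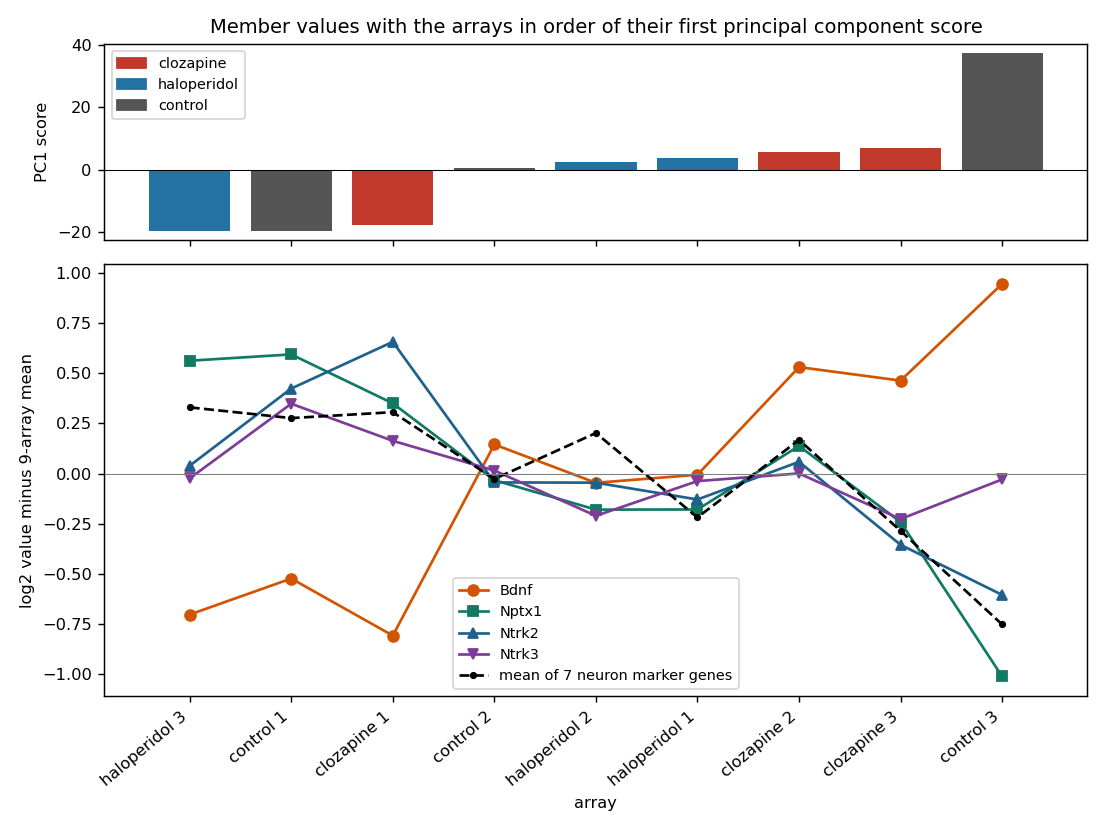
Top, score of each array on the first principal component (vertical axis), with bars coloured by treatment; bottom, log2 value minus the 9-array mean of Bdnf, Nptx1, Ntrk2 and Ntrk3 and the mean of 7 neuron marker genes (dashed), with the arrays in order of that score. Haloperidol replicate 3, control replicate 1 and clozapine replicate 1 have low Bdnf and high Nptx1, and control replicate 3, at a score of 37.51, has the reverse.

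Measures of RNA quality and of cell type moved with this order. Control probe sets for the 3' and the 5' end of the Actb and Gapdh transcripts differ more where RNA is shortened, and this 3' to 5' gap was 1.73 log2 units in control replicate 3, against 0.892, 0.814 and 0.882 in clozapine replicate 1, haloperidol replicate 3 and control replicate 1. The other 5 arrays lay between 0.868, in haloperidol replicate 2, and 1.46, in control replicate 2. Over the 9 arrays the gap had an r of 0.79 with Bdnf and of -0.82 with Nptx1 (0.65 and -0.60 without control replicate 3). Of 8 neuronal marker genes 7 were tested, and their mean relative to the 9 arrays was 0.31, 0.17 and -0.29 with clozapine, -0.22, 0.20 and 0.33 with haloperidol and 0.28, -0.03 and -0.75 in controls. Of 10 astrocyte markers 8 were tested, and their mean was 0.01, 0.04 and -0.04 with clozapine, -0.06, 0.09 and -0.13 with haloperidol and -0.10, -0.09 and 0.28 in controls. Over 13 marker lists control replicate 3 was the lowest array in 6, namely neurons, excitatory neurons (-0.53), cholinergic neurons (-0.50), striatal projection neurons (-0.14), oligodendrocytes (-0.27) and microglia (-0.22), and the highest in 2, astrocytes and cerebellum (0.22). In the excitatory list Camk2a stood at 3.87 on this array against an average of 7.52, and Crym at 6.81 against 7.14. Neurod6, Neurod1, Tbr1 and Fezf2 lay above their averages. In the cholinergic list Ache stood at 5.04 against 6.60, with Lhx8 and Isl1 above their averages. In the striatal list Drd2 stood at 4.81 against 5.34. The low means of these lists thus rested on few genes. In the cerebellum list, highest on this array, Zic1 stood at 10.50 against 9.86 and Zic2 at 5.14 against 4.63. Pcp2 (7.35 against 7.32), Pvalb (6.88 against 6.82), Cdh15 (4.81 against 4.73) and Calb1 (8.77 against 8.78) lay near their averages. Control replicate 3 was also the highest array in Bdnf, itself a neuronal transcript. The part of RNA quality and of tissue makeup in the members' values was not tested.

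The genes whose pattern was most like that of each member were taken from 5649 other genes by their Pearson r over the 9 arrays, and no test attaches to a choice of the highest. For Bdnf they were Arpc2, a subunit of the actin-nucleating Arp2/3 complex, Txnl1, a thioredoxin-like protein, and Matr3, an RNA-binding protein of the nuclear matrix, with an r of 0.98 for each (0.97 or higher without control replicate 3 for each of them). For Nptx1 they were Epha4, an ephrin receptor, 6330403K07Rik and Tcta, with an r of 0.99 for each. For Ntrk2 they were Spock2, an extracellular proteoglycan, the kinase gene Pim3 and Cdk5rap3, at 0.96, 0.95 and 0.95. For Ntrk3 they were Ctsh, a lysosomal protease, Cystm1 and the co-chaperone gene Sgta, at 0.95, 0.93 and 0.91. For Gdnf they were the keratin gene Krt2, the metalloprotease gene Adam12 and the immunoglobulin gene Iglc1, at 0.99 each. These 3 had low averages of 3.72, 4.07 and 3.65, against 3.56 for Gdnf.

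Among the other genes of neurotrophin signalling, no gene passed the adjusted threshold with either drug. Of 35 listed genes that act downstream of Trk receptors 18 were tested, of which 11 lay above and 7 below the controls with clozapine, with a median difference of 0.01, and 10 above and 8 below with haloperidol, with a median of 0.06. Over all 5650 genes tested, 50.1% lay above with clozapine and 48.1% with haloperidol, with medians of 0.00 and -0.01. The lowest unadjusted p in the list belonged to Irs1, an adaptor of insulin and growth factor receptors, which averaged 3.82 with haloperidol against 4.12 in controls (unadjusted p = 0.0172 and adjusted p = 0.530 in limma), and Rps6ka3, a kinase downstream of MAP kinase, with a difference of -0.22 (unadjusted p = 0.0432). Rps6ka3 averaged 3.31 with haloperidol, under the filter value of 3.45, and 3.53 in controls. Both genes had low values, and the median over all 12422 probe sets was lower with haloperidol as well. That median stood at 4.07, 4.06 and 4.02 against 4.15, 4.19 and 4.11 in controls. The part of this shift in the differences of low-valued genes was not tested. With clozapine Sos1, an exchange factor that loads Ras, differed by -0.16 and Akt1, a survival kinase, by 0.32, which was 0.05 without control replicate 3.

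For the p75 receptor pathway 5 of 11 listed genes were tested, of which 4 lay above the controls with clozapine (median 0.08) and 3 with haloperidol (median 0.16). Irak1, an adaptor kinase, differed by 0.17 and 0.25 with clozapine and haloperidol, and Mapk8, the JNK1 gene, by 0.12 and 0.27, while a second Mapk8 probe set gave -0.08 and -0.25. The probe sets of Mapk8 thus disagreed in direction, and without control replicate 3 the first gave -0.01 and 0.14. Irak1 differed by 0.32 and 0.40 without that array.

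Of 10 genes that cut or activate neurotrophin precursors, 6 were tested, with 3 above the controls under clozapine (median -0.02) and 2 under haloperidol (median -0.08). Plat, the tissue plasminogen activator that starts the extracellular cleavage of pro-BDNF, averaged 7.33 with clozapine and 7.51 in controls, a difference of -0.18 that did not pass (adjusted p = 1 in limma, unadjusted p = 0.0324). The convertase gene Pcsk5 differed by -0.08 and -0.11 with clozapine and haloperidol, and Plg, the plasminogen gene, by -0.27 with haloperidol at a mean of 3.30, under the filter value. For the granins and peptide-processing enzymes 9 of 11 genes were tested, with 3 above under clozapine and 7 under haloperidol (medians -0.02 and 0.10). Haloperidol replicate 3, the array with high pituitary hormone transcripts, had Chga at 7.79 against 6.63 and 6.45 on the other haloperidol arrays. Pcsk1 stood there at 4.61 against 4.42 and 4.41. Scg3, at 9.92, and Pcsk1n, at 10.12, were also highest there among the haloperidol arrays. Chgb, Scg5, Cpe and Pam were instead lowest there, and Scg2 lay between. The part of this array in the haloperidol count was not tested. Scg2, secretogranin II, differed by -0.13 and Pcsk1n, an inhibitor of prohormone convertase 1, by 0.46 with clozapine. With haloperidol Pam, which amidates peptides, differed by -0.21 at a low mean of 3.60. Cpe, carboxypeptidase E, differed by 0.13 with haloperidol, while a second Cpe probe set gave -0.04. Without control replicate 3 Pcsk1n turned to -0.14 with clozapine, Scg2 stood at -0.06 with clozapine, and Pam and Plg stood at -0.13 each with haloperidol.

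Of 17 regulators of Bdnf transcription 11 were tested, with 6 above the controls under clozapine and 4 under haloperidol (medians 0.00 and -0.05). Bhlhe40, a repressor that is known to bind the activity-dependent Bdnf promoter printed above and also belongs to the circadian clock, had the lowest unadjusted p of this list. It had 8.00, 7.97 and 8.11 with clozapine, 8.26, 7.88 and 8.25 with haloperidol and 7.41, 7.30 and 7.97 in controls. Control replicate 3 reached the treated arrays, and the other 2 controls lay below all 6 of them. The difference was 0.47 with clozapine (unadjusted p = 0.0352, adjusted p = 1 in limma) and 0.57 with haloperidol (unadjusted p = 0.0150, adjusted p = 0.530), so neither passed. Without control replicate 3 the differences of Bhlhe40 were larger, at 0.67 and 0.77. Mef2c, an activity-regulated transcription factor, differed by 0.23 and 0.42 with clozapine and haloperidol, and its 3 other probe sets by 0.61 to 0.92 and 0.49 to 0.72. Control replicate 3 was the lowest array in all 4 Mef2c probe sets. Without it the differences were 0.10 and 0.29 in the first and 0.24 to 0.42 and 0.11 to 0.22 in the others. The highest difference of the list, 1.59 with clozapine, belonged to the kinase gene Camk2a, named after its value was seen, which stood at 3.87 in control replicate 3 against 6.68 or higher on all other arrays.

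Genes induced by activity or by BDNF were represented by 14 of 19 listed, with 9 above the controls under clozapine (median 0.05) and 7 under haloperidol (median -0.01). Egr2, an immediate early transcription factor, differed by 0.21 with clozapine, and the neuropeptide genes Npy and Cort by -0.18 and -0.16 with haloperidol. Of the GDNF family and its receptors 4 of 10 listed genes were tested, with 1 above under each drug (medians -0.02 and -0.01). The co-receptor gene Gfra1 differed by 0.28 and 0.11 with clozapine and haloperidol and Gfra2 by -0.07 and -0.01. Without control replicate 3 the differences of Gfra1 were 0.07 and -0.09, and those of Gfra2 were -0.60 and -0.54. Of the pentraxins and AMPA receptor subunits 5 of 7 were tested, with 3 above under clozapine and 5 under haloperidol (medians 0.17 and 0.12). Gria1, an AMPA receptor subunit, differed by 0.46 and 0.54, and Gria2 by 0.17 and 0.12 in its brightest probe set, with its 3 other probe sets between -0.09 and 0.31 for clozapine and between -0.40 and 0.50 for haloperidol. A second Gria1 probe set gave 0.35 and 0.43. Without control replicate 3 the first Gria1 probe set turned to -0.09 and -0.01, as Nptx1 did. The second kept its direction, at 0.04 and 0.12.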

How the data were processed

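The deposited table holds log2 probe set values that the authors made with GCRMA, per the submitters' processing notes. The version and probe set definition are not given in the sources used here. GCRMA compresses unexpressed probe sets towards a floor. Arrays were grouped by title. Symbols were updated through Entrez identifiers to RefSeq (GRCm38.p6), which held 10817 of the 10833 probe sets with 1 symbol, while 396 had several and 1193 none. The 66 control probe sets entered no test. All 9 arrays entered 1 fit with a mean for each treatment in limma 3.58.1 in R 4.3.3 (lmFit, eBayes; 6 residual and 2.03 prior degrees of freedom), two-sided, with Benjamini-Hochberg adjustment over 7453 probe sets. It was tested on simulated data. A gene was represented by its brightest probe set. Signal, not read depth, and the number of arrays limit the precision.

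Named were every member, the 2 list genes with the lowest p per drug and list, and the 3 genes most like each member. Members and lists were chosen with earlier results of these data known. Alternatives covered filter, scaling, a floor, variance model, array weights, the 6 arrays compared, the replicate number and left-out arrays. A covariate of 3' to 5' gap and the removal of 2 arrays were chosen after seeing the data.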

Additional observations from a re-analysis of the deposited data

How the results depend on the processing

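The count of called probe sets was 0 under all 20 alternatives for each drug comparison, and no member was called under any of them (lowest adjusted p in limma 0.143, for Gdnf with haloperidol under array weights, whose estimation stopped before it converged). Counts with an unadjusted p under 0.05 ranged from 36 to 926 for clozapine, from 161 to 1944 for haloperidol and from 30 to 2061 between the drugs. Of 294 member values under alternatives, 35 changed sign. The values did not settle whether the same replicate number pairs arrays. Residuals of same-numbered arrays correlated at -0.597 to 0.697, with 3 of 9 pairs over 0.1, and 5 of 9 arrays correlated best with their own number. With the replicate block, 0 probe sets were called in each comparison, and unadjusted counts were 60, 665 and 333 for clozapine, haloperidol and between the drugs.

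Signs that turned follow as log2 differences, drug minus control unless said otherwise, and the cause was not tested. With the 3' to 5' gap as a covariate, the differences with clozapine were 0.396 for Bdnf, 0.0270 for Gdnf, -0.239 for Nptx1, -0.135 for Ntrk2, -0.0483 for Mapk8, -0.120 for Gria1 and -0.105 for Pcsk1n, and with haloperidol 0.186 for Bdnf, -0.346 for Nptx1, -0.365 for Ntrk2, -0.123 for Gfra1 and -0.155 for Gria1. Without haloperidol replicate 3 and control replicate 3 together they were, with clozapine, 0.251 for Bdnf, 0.0127 for Gdnf, -0.198 for Nptx1, -0.0698 for Ntrk2, -0.0072 for Mapk8, -0.0903 for Gria1 and -0.144 for Pcsk1n, and with haloperidol 0.163 for Bdnf, -0.460 for Nptx1, -0.277 for Ntrk2, -0.152 for Gfra1 and -0.266 for Gria1. Centring on medians gave -0.085 for Nptx1 and -0.0293 for Ntrk3 (clozapine minus haloperidol) and 0.0932 for Gfra2 with haloperidol, for which quantile normalization gave 0.0953. Array weights gave -0.0124 for Ntrk2 and -0.0705 for Gfra1 with haloperidol.

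With each array left out in turn, ranges with clozapine were -0.483 to 0.308 for Bdnf, -0.0832 to 0.0208 for Gdnf, -0.198 to 0.604 for Nptx1, -0.0733 to 0.444 for Ntrk2, -0.0156 to 0.317 for Irak1, -0.0072 to 0.280 for Mapk8, -0.604 to 0.380 for Gfra2, -0.0903 to 0.827 for Gria1 and -0.144 to 0.881 for Pcsk1n. With haloperidol they were -0.213 to 0.590 for Nptx1, -0.235 to 0.279 for Ntrk2, -0.541 to 0.442 for Gfra2, -0.0926 to 0.224 for Gfra1, -0.0103 to 0.907 for Gria1 and -0.0276 to 0.253 for Gria2. Clozapine minus haloperidol ranged from -0.120 to 0.261 for Nptx1, from -0.0222 to 0.173 for Ntrk3 and from -0.103 to 0.403 for Ntrk2. List medians with clozapine and haloperidol ranged from -0.198 to 0.202 and -0.0760 to 0.341 for pentraxins and AMPA receptors. They ranged from -0.0156 to 0.170 and -0.0481 to 0.246 for p75 signalling. The medians of Trk signalling and the GDNF family also turned with both drugs. The median of activity and BDNF induced genes turned with haloperidol alone, from -0.0897 to 0.0609. That of granins and peptide processing turned with clozapine alone, from -0.0456 to 0.0101. The medians of precursor processing and of Bdnf regulators kept their sign.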
